A study of Mus musculus with 8 samples.

Results

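The genes described here are 9 mouse genes that encode subunits of the Polycomb repressive complexes. They were taken by symbol from the 49315 genes in the count files: Ezh1, Ezh2, Suz12, Eed and Jarid2 of Polycomb repressive complex 2 (PRC2), and Bmi1, Rnf2, Ring1 and Cbx7 of Polycomb repressive complex 1 (PRC1). All 9 had a row in the files, and all 9 passed the filter on low counts. Their RNA was compared between OT-I CD8 T cells that received a guide against LacZ (called control, 4 libraries) and the same kind of cells given one against Carm1 (called Carm1-edited, 4 libraries). OT-I T cells are mouse cytotoxic T cells with a transgenic receptor for an ovalbumin peptide, and Carm1 encodes a protein arginine methyltransferase that helps activate transcription. Both arms were naive cells from spleen and lymph nodes, carried the CD45.1 allele, received Cas9 editing by nucleofection and were grown in medium with interleukin-15 and interleukin-7, and RNA was taken 7 days after editing. LacZ is absent from the mouse genome, so the control guide has no target there. The series text also speaks of co-culture with B16F10-Ova melanoma cells, which the sample protocols do not describe. The labels name no cloning step and call the 4 libraries of an arm technical replicates. P-values therefore measure only the spread between these libraries, and an effect of the edit and a difference between preparations of cells cannot be told apart.

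Polycomb complexes keep genes silent through marks on histones. PRC2 methylates histone H3 at lysine 27 through EZH2 or its paralog EZH1, each of which needs SUZ12 and EED to be active. PRC1 places ubiquitin on histone H2A through RING1 or RNF2 (also called RING1B), paired with a PCGF protein such as BMI1, and its canonical form reads the PRC2 mark through a CBX protein such as CBX7. EZH2 is typical of dividing cells, and EZH1 is better maintained in resting ones. In CD8 T cells PRC2 is known for silencing memory genes during effector differentiation.

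Total counts ran from 37556330 to 41439998 per library, and each of the 9 genes had between 1282 and 7559 counts in every library. Levels are CPM (counts scaled to library size, with TMM factors that line up most genes between libraries), as mean ± SD with n = 4. A positive log2 fold change means a higher level in the Carm1-edited libraries and is followed by its standard error (SE). Adjusted p is from edgeR's quasi-likelihood test over 14970 genes after Benjamini-Hochberg adjustment, with calls made at 0.05. Carm1 itself was at 94.4, 95.9, 96.9 and 96.3 CPM in the control and 32.8, 33.2, 33.0 and 32.1 CPM after Carm1 editing. Its log2 fold change was -1.55 ± 0.027, and the labels report that the protein was lost. All 10 T cell markers, Cd3e and Cd8a among them, were tested and well above 0 in both arms. They were not level: 7 were called higher and 3 lower, with a median log2 fold change of 0.63. Their sum was 6616 to 6776 CPM in control and 7877 to 8117 CPM in edited libraries. The arms differed almost everywhere, with 87.7% of tested genes called and 83.4% not overlapping between the groups, so a call on a single gene is common here and its size carries more than its p. Scaling matters for small differences. With upper-quartile factors the median over tested genes shifted by 0.215 on the log2 scale, and the share of called genes that were higher went from 50.8% to 61.0%.

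Of the 9 Polycomb genes, Ezh1, Cbx7, Ring1 and Rnf2 were higher in the Carm1-edited libraries, and Eed, Suz12, Bmi1 and Jarid2 were lower. Ezh2 did not pass. With 4 called higher and 4 called lower, their shares lie near the background of 44.5% of tested genes called higher and 43.2% called lower. The groups did not overlap for 8 of the 9, against 83.4% of all tested genes. At least 2-fold differences were found for Cbx7 and Ezh1 (higher) and Eed (lower), 3 of 9, against 35.7% of tested genes called at that size. The median log2 fold change was 0.013 over the 9 genes and 0.020 over all genes tested. The 9 genes thus shared no direction, and their counts and median were close to those of all tested genes.

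**Figure D1:**
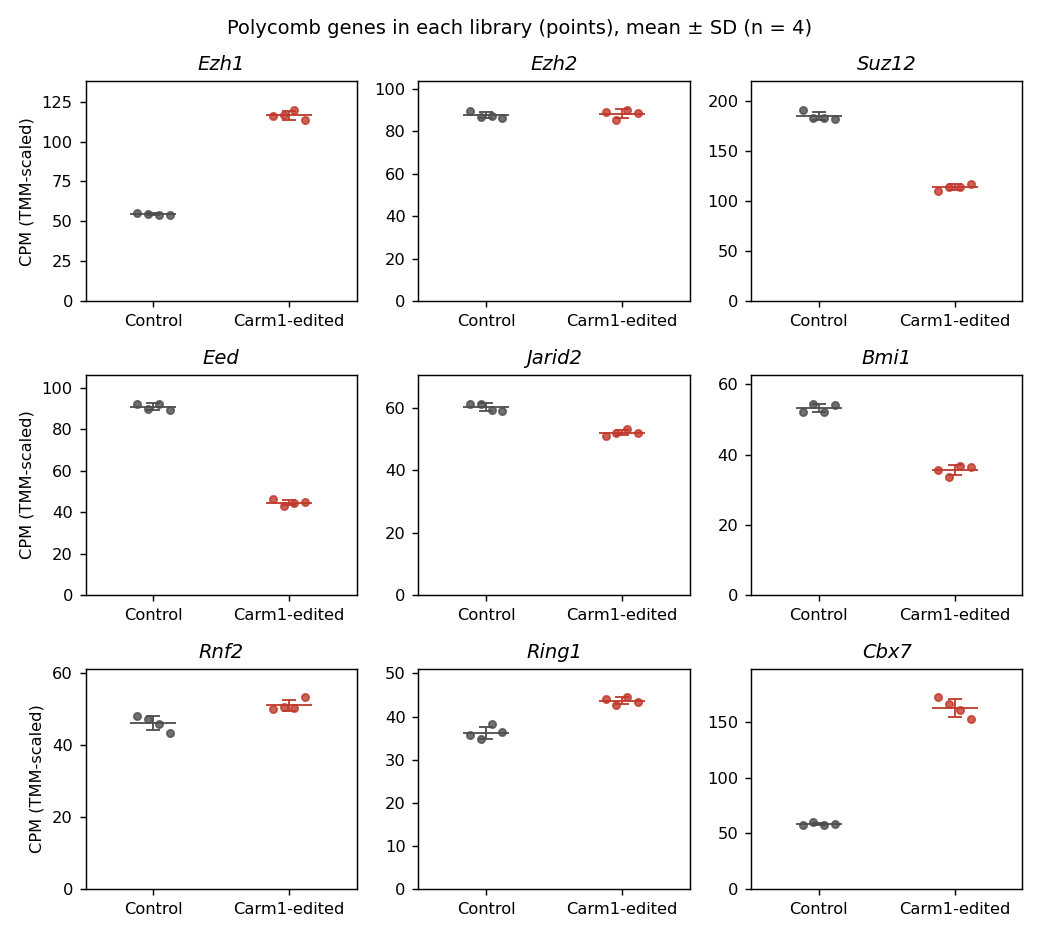
CPM of the 9 Polycomb genes in each library, 1 panel per gene with its own vertical axis from 0; points are libraries, and bars are the mean ± SD of the 4 control (grey) and 4 Carm1-edited (red) libraries. Ezh2 overlaps between the groups, at 87.4 and 88.2 CPM on average, and the other 8 genes do not.

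The catalytic subunits of PRC2 parted. Ezh1 (ENSMUSG00000006920, chromosome 11, 101191115 to 101226463, minus strand, mm10) was at 55.1, 54.6, 54.1 and 53.7 CPM in the control libraries and at 116.0, 116.7, 119.9 and 113.3 CPM in the Carm1-edited libraries. All 4 edited libraries were well above all 4 controls, and Ezh1 rose 2.14-fold (log2 fold change 1.10 ± 0.025, adjusted p = 2.7e-33). Ezh2 (ENSMUSG00000029687, chromosome 6, 47530139 to 47595341, minus strand) was at 89.3, 86.8, 87.3 and 86.2 CPM in the control and 88.9, 85.3, 90.0 and 88.6 CPM in the Carm1-edited libraries. These ranges overlapped, and the log2 fold change of 0.013 ± 0.025 did not pass (adjusted p = 0.63). That result depends on the scaling: Ezh2 was called higher with upper-quartile factors (log2 fold change 0.23) and with library totals alone (0.17). The choice of scaling did not touch the ratio of the paralogs, because both are read in the same library. Per kilobase of exon, Ezh1 stood at 0.559 of the Ezh2 level in control libraries and at 1.19 of it after Carm1 editing. The ratio was 2.12-fold higher, with log2 ratios of -0.84 ± 0.012 and 0.25 ± 0.042 (SD, n = 4). An exact two-sided permutation test gave p = 0.0286, the smallest that 4 against 4 libraries allow. As a share of both EZH transcripts per kilobase, Ezh1 went from 35.8% ± 0.199 to 54.2% ± 0.723, and so passed from the minor to the major paralog.

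The 250 bases before the RefSeq transcription start are shown 5′ to 3′ for these paralogs and for 2 further members. Those are the members with the largest fall (Eed) and the largest rise (Cbx7). All 4 genes lie on the minus strand (RefSeq, GRCm38.p6). Capitals mark a CCAAT box (CCAAT on either strand) or a CHR element, a motif known from genes of the late cell cycle (TTTGAA on either strand). In the Ezh1 window (chr11:101226464-101226713) neither motif was present.
Ezh1: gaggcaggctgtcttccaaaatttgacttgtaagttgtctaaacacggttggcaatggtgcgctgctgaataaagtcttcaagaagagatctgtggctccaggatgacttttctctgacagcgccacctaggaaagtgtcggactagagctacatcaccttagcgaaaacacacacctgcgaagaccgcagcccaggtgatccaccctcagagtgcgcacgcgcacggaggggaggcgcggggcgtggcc
Ezh2 (chr6:47595031-47595280): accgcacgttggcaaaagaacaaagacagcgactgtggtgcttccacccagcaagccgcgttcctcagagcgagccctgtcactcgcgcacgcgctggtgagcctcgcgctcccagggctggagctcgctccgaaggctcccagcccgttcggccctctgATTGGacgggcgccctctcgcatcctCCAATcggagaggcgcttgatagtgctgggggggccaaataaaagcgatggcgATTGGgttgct
Eed (chr7:89980977-89981226): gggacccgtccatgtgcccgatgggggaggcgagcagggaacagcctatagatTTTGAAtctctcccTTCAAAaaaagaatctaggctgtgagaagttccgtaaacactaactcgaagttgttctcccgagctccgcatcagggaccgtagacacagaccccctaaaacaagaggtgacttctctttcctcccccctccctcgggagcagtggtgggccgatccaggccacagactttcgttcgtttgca
Cbx7 (chr15:79932647-79932896): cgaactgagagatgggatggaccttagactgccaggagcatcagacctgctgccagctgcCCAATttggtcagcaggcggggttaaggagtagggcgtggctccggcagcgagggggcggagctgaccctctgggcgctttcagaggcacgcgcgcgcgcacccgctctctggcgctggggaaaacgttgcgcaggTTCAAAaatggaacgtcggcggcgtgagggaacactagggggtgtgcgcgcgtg

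All 9 genes had a RefSeq promoter window of 300 bases, from 250 before to 50 after the start, with a further window for Jarid2. The windows of Cbx7, Jarid2 and Ezh2 lie inside the span of the gene as counted. For Ezh2, on the minus strand, that span begins at 47595341, a short way upstream of the window, which begins at 47595280. For Cbx7, also on the minus strand, the span begins at 79971119, well upstream of its window. An E2F site, the motif of the factors that drive S phase genes (searched as TTTGGCGC or TTTCGCGC on both strands), was present in the window of Ezh2 alone among the 9, at positions 4 to 11 after the start, and in 0.813% of all 32851 windows. That stretch, at positions 1 to 20 after the start (chr6:47595011-47595030, minus strand), reads as follows with the motif in capitals.
Ezh2 start: gcgTTTGGCGCtcggtccgg

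A CCAAT box was found in the Ezh2, Suz12, Eed, Jarid2 and Cbx7 windows and in 37.4% of all windows. The Ezh2 window held 3 of them. A CHR element was found in the Suz12, Eed and Cbx7 windows and in 17.9% of all windows. An E-box (CACGTG) was found only in the Bmi1 window among the 9, and in 7.15% of all windows. CpG dinucleotides numbered 17 in the Eed window, the fewest, and 41 in that of Suz12, the most, against a median of 7 over all windows. Such matches describe letters in a window and are not binding sites.

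The non-catalytic core of PRC2 was lower. Suz12 (ENSMUSG00000017548, chromosome 11, 79993106 to 80034123, plus strand) encodes the subunit that holds the complex together. It was at 191.5, 183.2, 183.4 and 182.3 CPM in the control and 110.6, 114.3, 114.3 and 117.6 CPM in the Carm1-edited libraries. All edited libraries lay far below all controls, and Suz12 fell 1.62-fold (log2 fold change -0.70 ± 0.024, adjusted p = 6.6e-27). Eed (ENSMUSG00000030619, chromosome 7, 89954654 to 89980983, minus strand) encodes the subunit that binds methylated H3 and stimulates the enzyme. It was at 92.3, 89.8, 92.0 and 89.3 CPM in the control and 46.1, 43.0, 44.3 and 44.9 CPM in the Carm1-edited libraries. Eed fell 2.04-fold (log2 fold change -1.03 ± 0.027, adjusted p = 3.2e-31), the largest fall among the 9. Rbbp4 and Rbbp7, which encode the histone-binding subunits of PRC2 and serve other chromatin complexes as well, fell 1.73-fold and 3.28-fold. Rbbp7 went from 417 ± 2.92 to 127 ± 2.87 CPM, the largest fall among the PRC2 genes tested.

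Accessory subunits direct PRC2 to its targets. Jarid2 (ENSMUSG00000038518, chromosome 13, 44729474 to 44921643, plus strand), a subunit of the PRC2.2 form, was at 61.3, 61.1, 59.1 and 58.9 CPM in the control and 51.0, 52.0, 53.3 and 52.0 CPM in the Carm1-edited libraries. The groups did not overlap, and the log2 fold change was -0.21 ± 0.028 (adjusted p = 1.0e-08). This small difference is within the shift between scalings, and with upper-quartile factors it was 0.0074 with an adjusted p = 0.81. Aebp2, the partner of Jarid2 in PRC2.2, was at 183 ± 2.88 and 191 ± 2.14 CPM, a log2 fold change of 0.062 whose call was lost with DESeq2 (adjusted p = 0.052), with no filter (0.23) and without control replicate 1 (0.054), 2 (0.066) or 3 (0.12). The Polycomb-like subunits of the PRC2.1 form diverged: Phf1 rose 2.39-fold, to 76.4 ± 2.86 CPM, while Mtf2 fell 1.27-fold and Phf19 fell 1.57-fold. Epop, which couples PRC2 to elongin, fell 2.82-fold, from 74.8 ± 3.79 to 26.5 ± 2.04 CPM. Of the 13 PRC2 genes listed, all tested, 3 were higher and 9 were lower, while Ezh2 did not pass. Their median log2 fold change was -0.49, beside 0.020 over all genes tested. Of all tested genes, 87.7% were called, 44.5% as higher and 43.2% as lower.

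**Figure D2:**
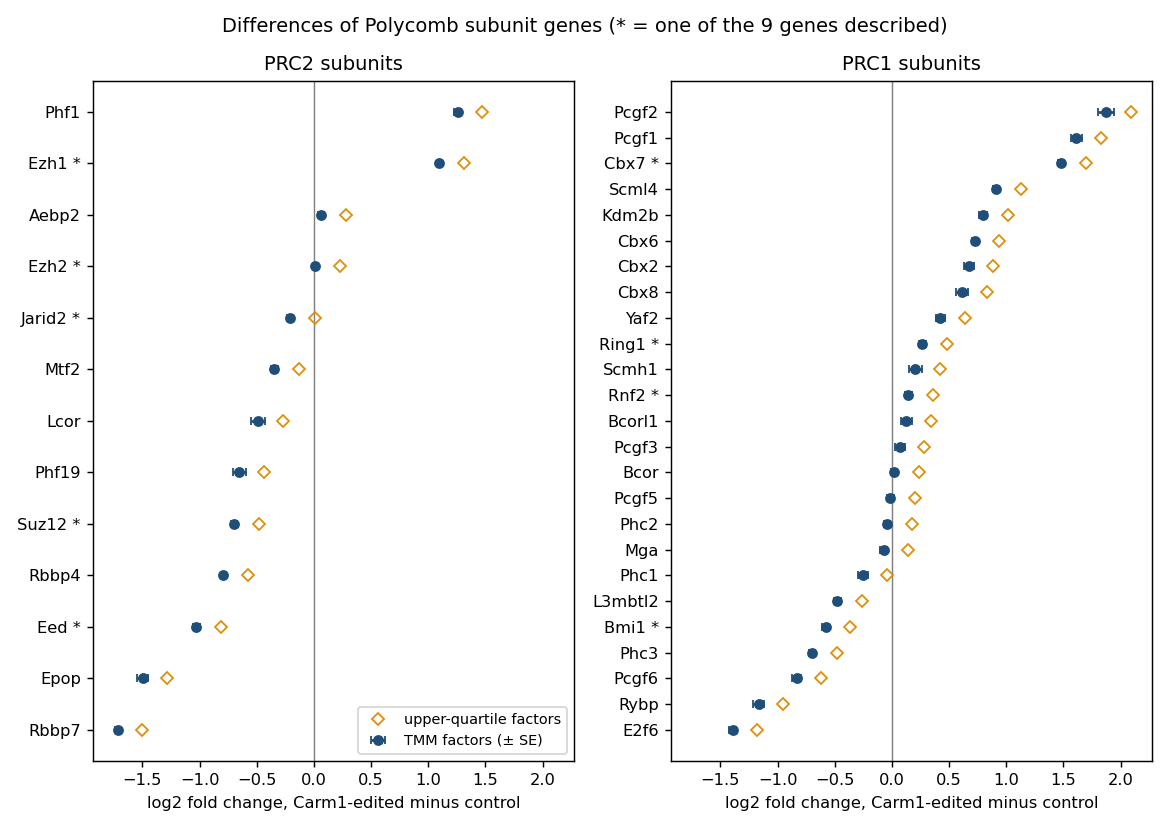
Log2 fold change (horizontal axis, Carm1-edited minus control) of the 13 PRC2 genes (left) and of tested PRC1 genes (right); filled circles are TMM-scaled values with their SE, open diamonds the same with upper-quartile factors, and asterisks mark the 9 genes described. The diamonds sit to the right of the circles throughout, which carries Jarid2 to 0.0074, while Ezh1 and Cbx7 stay above 1 and Eed and Rbbp7 stay below 0.

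Among PRC1 genes, the ubiquitin ligases moved little with TMM factors. Ring1 (ENSMUSG00000024325, chromosome 17, 34020792 to 34024680, minus strand) was at 35.7, 34.9, 38.2 and 36.4 CPM in the control and 44.1, 42.7, 44.4 and 43.3 CPM in the Carm1-edited libraries. It rose modestly (log2 fold change 0.27 ± 0.033, adjusted p = 1.3e-09). Rnf2 (ENSMUSG00000026484, chromosome 1, 151458004 to 151500955, minus strand), which encodes the main ligase of most cell types, was at 48.0, 47.4, 45.9 and 43.4 CPM in the control and 50.0, 50.6, 50.3 and 53.3 CPM in the Carm1-edited libraries. The groups came close without overlapping, and Rnf2 rose 1.11-fold (log2 fold change 0.14 ± 0.032, adjusted p = 8.3e-05). Over alternative ways of processing, the log2 fold change ran from 0.24 to 0.48 for Ring1 and from 0.10 to 0.36 for Rnf2. The paralogs kept near-equal shares: Ring1 made up 50.0% ± 1.75 of their transcripts per kilobase in control libraries and 52.1% ± 1.01 after Carm1 editing. That difference of 2.11 percentage points did not pass (exact two-sided permutation test, p = 0.114, adjusted p = 0.114 over 4 family shares).

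PCGF proteins pair with the ligase and decide which form of PRC1 is built. Bmi1 (ENSMUSG00000026739, chromosome 2, 18677018 to 18686629, plus strand), also known as Pcgf4 and a self-renewal factor of stem and lymphoid cells, was at 52.2, 54.5, 52.2 and 54.0 CPM in the control and 35.7, 33.6, 36.7 and 36.4 CPM in the Carm1-edited libraries. It fell 1.49-fold (log2 fold change -0.58 ± 0.032, adjusted p = 7.4e-20), and the groups were well apart. Its paralogs differed among themselves. Pcgf2 (Mel-18), the closest paralog of Bmi1, rose 3.66-fold from 3.64 ± 0.413 to 13.3 ± 0.252 CPM, and Pcgf1, of the variant complex with KDM2B and BCOR, rose 3.06-fold to 28.8 ± 1.06 CPM. Pcgf6, the partner of L3MBTL2, MGA and E2F6, fell 1.78-fold, as Bmi1 did. Pcgf3 and Pcgf5 did not pass, with log2 fold changes of 0.069 and -0.013, and both were called higher with upper-quartile factors (0.28 and 0.20). Within the family of 6, the share of Bmi1 per kilobase went from 19.5% ± 0.526 to 12.5% ± 0.398 (exact two-sided permutation test, n = 4 each, p = 0.0286, adjusted p = 0.0381). Pcgf5 had the largest share per kilobase in both arms, at 43.2% ± 0.828 and 41.2% ± 0.792, and Pcgf1 went from 8.30% ± 0.533 to 24.4% ± 1.04. The lead of Pcgf5 in control rests on its short exon length, 1659 bases against 3974 for Bmi1. In CPM without length scaling, Bmi1 (53.2) was above Pcgf5 (49.3) in control, and Pcgf5 (48.9) was above Bmi1 (35.6) after Carm1 editing.

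Cbx7 (ENSMUSG00000053411, chromosome 15, 79915807 to 79971119, minus strand), a chromodomain reader of the PRC2 mark, showed the largest difference of the 9 genes. It was at 57.8, 60.1, 57.3 and 58.9 CPM in the control and 172.6, 166.2, 160.8 and 153.2 CPM in the Carm1-edited libraries. The edited libraries varied more among themselves than the controls, and still lay far above them. Cbx7 rose 2.79-fold (log2 fold change 1.48 ± 0.030, adjusted p = 2.6e-31). Its paralogs Cbx6, Cbx2 and Cbx8 rose as well, 1.65-fold, 1.59-fold and 1.53-fold, and stayed higher under each scaling tried. Cbx7 rose more than its family. Its share per kilobase of the Polycomb CBX transcripts went from 23.8% ± 0.205 to 32.8% ± 0.721 (exact two-sided permutation test, n = 4 each, p = 0.0286, adjusted p = 0.0381). Cbx6 had the largest share in control libraries (31.0% ± 0.645), and Cbx7 had it after Carm1 editing.

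**Figure D3:**
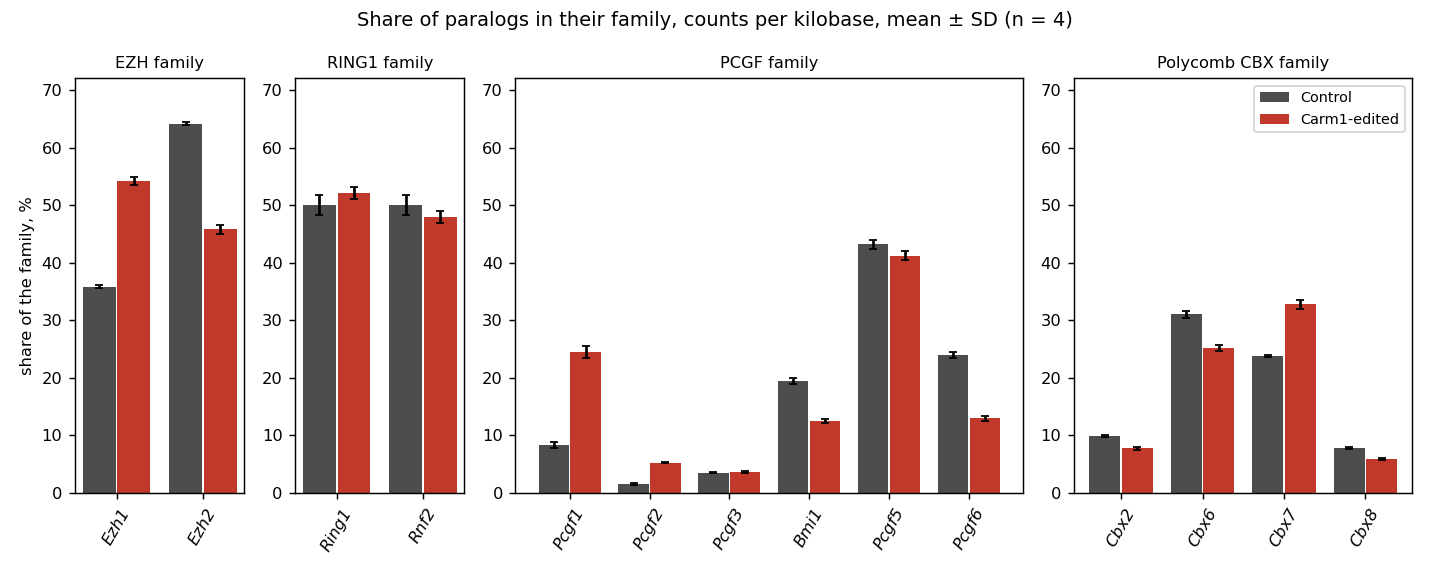
Share of paralogs in their family (percent, from counts per kilobase of exon) as mean ± SD of 4 control (grey) and 4 Carm1-edited (red) libraries, with the vertical axis from 0. Ezh1 passes Ezh2, Bmi1 goes from 19.5% to 12.5% and Cbx7 from 23.8% to 32.8%, while Ring1 and Rnf2 stay near 50%.

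Of the remaining PRC1 genes, the polyhomeotic subunit genes Phc3 and Phc1 fell 1.62-fold and 1.19-fold, and Phc2 did not pass (log2 fold change -0.044). Phc1 no longer passed under upper-quartile factors (-0.041, adjusted p = 0.37), where Phc2 was called higher (0.17), while Phc2 was called lower with DESeq2 (-0.059). Rybp, which links variant PRC1 to ubiquitinated H2A, fell 2.24-fold, to 10.7 ± 0.563 CPM, while its paralog Yaf2 rose 1.34-fold. Kdm2b, which brings variant PRC1 to CpG islands, rose 1.74-fold, and its partner Bcor, at 101 and 102 CPM, did not pass except as higher with upper-quartile factors (0.24), library totals alone (0.18) and the filter of 5 CPM (0.11). E2f6, a repressive E2F of the PCGF6 complex, fell 2.63-fold from 61.8 ± 1.81 to 23.5 ± 0.370 CPM, and L3mbtl2 of the same complex fell 1.39-fold. Scml4, a Polycomb-related gene expressed in lymphocytes, rose 1.88-fold to 110.5 CPM. Of 28 PRC1 genes listed, 26 passed the filter, and of these 14 were higher, 8 were lower and 4 did not pass. This split depends on the scaling. With upper-quartile factors the 4 that did not pass (Pcgf3, Pcgf5, Phc2 and Bcor) were called higher. Mga turned from lower to higher there, and Phc1 lost its call. The background is 44.5% of all tested genes called higher and 43.2% called lower. The median log2 fold change of the 26 was 0.14. Scml2 and Auts2 were below the filter.

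Levels can be compared between genes only per length, so the 9 genes were ordered by CPM per kilobase of exon. In the control libraries Suz12 (37.4 ± 0.870) and Eed (23.7 ± 0.403) stood first. Bmi1 (13.4) and Ezh2 (13.1) followed with overlapping ranges, then Rnf2 and Ring1 (both 11.2, overlapping), Cbx7 (9.02), Ezh1 (7.31) and Jarid2 (6.19). In the Carm1-edited libraries Cbx7 (25.2 ± 1.27) and Suz12 (23.1 ± 0.575) led with overlapping ranges. Ezh1 (15.7) came next, apart from its neighbours. Ring1 (13.5), Ezh2 (13.2) and Rnf2 (12.4) followed, each overlapping with the next, and then Eed (11.6), Bmi1 (8.96) and Jarid2 (5.36), each apart. Cbx7 thus moved from rank 7 to rank 1, Ezh1 from 8 to 3 and Eed from 2 to 7, while Jarid2 was lowest in both arms.

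**Figure D4:**
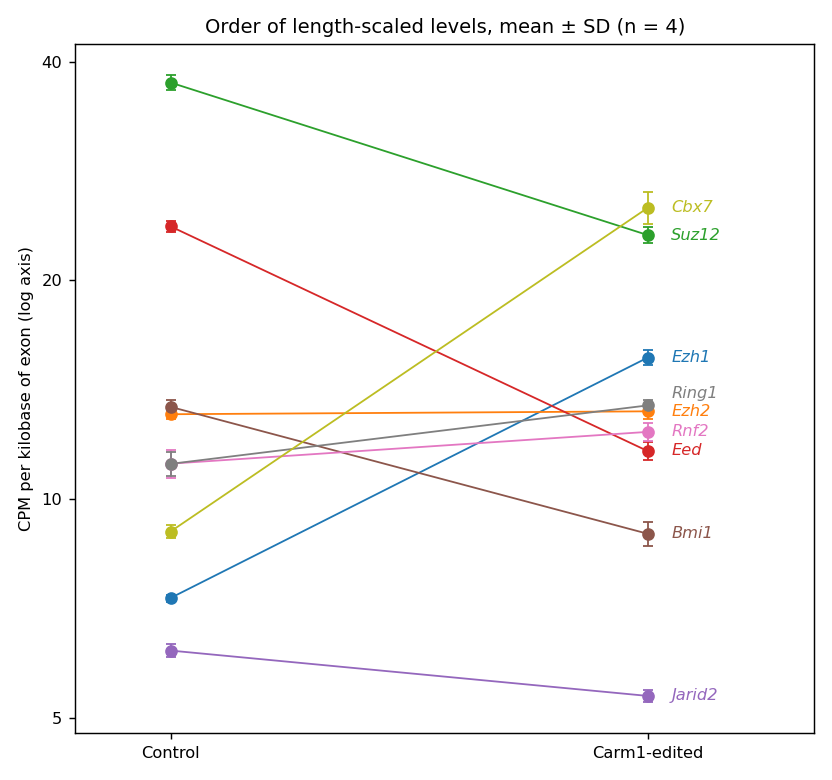
Length-scaled level (CPM per kilobase of exon, log axis) of the 9 genes as mean ± SD of 4 libraries in the control (left) and Carm1-edited (right) groups; lines join the same gene. The lines of Cbx7 and Ezh1 cross those of Eed and Bmi1, and Ezh2 stays level at 13.1 and 13.2.

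The enzymes that undo Polycomb marks were read from the same fit. The H3 lysine 27 demethylase gene Kdm6a was at 63.5 ± 1.71 and 63.1 ± 0.600 CPM and did not pass, but was called higher with upper-quartile factors (log2 fold change 0.20). Kdm6b, the other one, went from 97.4 ± 0.789 to 88.9 ± 5.12 CPM, with a log2 fold change of -0.13 (adjusted p = 0.00012) that turned to 0.083 with upper-quartile factors. Bap1, the catalytic subunit of the complex that removes ubiquitin from H2A, fell 1.45-fold, while its cofactor gene Asxl1 rose (log2 fold change 0.58). Ogt, which encodes the enzyme that adds N-acetylglucosamine to many nuclear proteins and binds this complex, rose 3.24-fold from 199.7 ± 4.43 to 647 ± 20.5 CPM. The scaffold gene Hcfc1 and the forkhead partners Foxk2 and Foxk1 fell 1.72-fold, 1.83-fold and 1.34-fold. Of the 9 tested genes of this complex 3 were higher, 5 were lower and 1 did not pass. Among all tested genes 44.5% were called higher and 43.2% lower. The split depends on the scaling: with upper-quartile factors 5 genes of this complex were called higher.

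Genes that Polycomb complexes are known to silence were also counted. Of the 39 Hox genes, which pattern the body axis, 37 were below the filter and 14 had no count in any library. Hoxb4, a Hox gene of blood progenitors, was at 1.97 ± 0.351 and 3.81 ± 0.714 CPM and was called higher, and Hoxa7 was at 0.624 ± 0.130 and 0.0787 ± 0.0566 CPM and was called lower. Hoxa7 shares exon bases with an antisense RNA, which these unstranded libraries cannot separate. All 20 listed developmental regulators, such as Gata4, Pax6 and Sox17, were below the filter in both arms, with summed levels of 0.380 to 0.608 CPM in control and 0.175 to 0.502 CPM in edited libraries. The cell cycle inhibitor gene Cdkn2a, a classic Polycomb target, was at 0.608 ± 0.0126 and 0.270 ± 0.119 CPM, from 91 and 44 counts over the groups, and its neighbour Cdkn2b was at 0.452 ± 0.132 and 0.0980 ± 0.0207 CPM. Both were called lower (edgeR, adjusted p = 0.00013 and 5.6e-07). Of the 4 cell cycle inhibitor genes listed, 2 were thus lower and 1 was higher, Cdkn1a (13.1 and 15.4 CPM), while Cdkn1c did not pass (log2 fold change 0.67, adjusted p = 0.062). Cdkn1c was called higher with upper-quartile factors (0.88) and library totals alone (0.83). It was also called higher without control replicate 4 (0.88) and without Carm1-edited replicate 4 (0.80). Beside these counts, 44.5% of all tested genes were called higher and 43.2% lower.

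Memory-associated T cell genes, several of which are known to gain the PRC2 mark in effector CD8 T cells, went both ways. Of 10 tested, 6 were higher and 4 were lower, with a median log2 fold change of 0.39. Among all tested genes 44.5% were called higher and 43.2% lower. Foxo1, a transcription factor of quiescent and memory T cells, rose 1.76-fold to 189 ± 2.13 CPM, and Lef1, a partner of the factor encoded by Tcf7, rose 1.63-fold. Bach2, a repressor that holds back effector differentiation, was at 65.4 ± 2.35 and 69.6 ± 1.68 CPM, a call that was lost without control replicate 3 (adjusted p = 0.061). Ccr7, a chemokine receptor of lymph node homing, fell 1.28-fold. Klf2, another of the 4 lower genes, no longer passed under upper-quartile factors (adjusted p = 0.47), library totals (0.17), the replicate block (0.069) or the test against a 1.5-fold change.

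Other features of these libraries also differed between the arms. Beside the list counts below, 44.5% of all tested genes were called higher and 43.2% lower. All 18 listed S phase genes were lower (median log2 fold change -2.11), with summed levels of 4197 to 4269 CPM in control and 841 to 858 CPM in edited libraries. All 18 G2/M genes were higher, with a median of 1.34. Ezh2, Eed, Suz12, Rbbp4 and Rbbp7 are known to be linked to proliferation, and the part of cell cycle state in their values was not tested. In the myeloid list, 9 of 10 markers were lower and Cst3 was higher. Their sum was 194 to 201 CPM in control and 66.6 to 76.3 CPM in edited libraries, where Lyz2 and Csf1r had 24 and 6 counts over the group. In the B cell list 4 of 10 markers passed the filter, 3 higher and Igkc lower. Their summed level, 275 to 281 and 931 to 958 CPM, was mostly Ighm, while Ms4a1 and Pax5 were below 0.2 CPM in both arms. Of the 5 markers of natural killer and CD4 T cells, 3 were higher and 2 lower, and their sum was 10.0 to 10.7 and 36.2 to 40.1 CPM. Of the 7 melanocyte markers, Tyr, Tyrp1, Dct and Sox10 had no count in any library, and Pmel was at 3.43 and 12.7 CPM. The part of other cells in the Polycomb differences was not tested, and in bulk RNA fewer cells of a type and less RNA per cell cannot be told apart.

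Some reads may belong to neighbours. Cbx7 shares 100 exon bases with Apobec3, which lies on the opposite strand and had more counts than Cbx7, and Rnf2 shares 158 exon bases with Trmt1l in the same way. Ezh2, Suz12 and Eed overlap antisense or divergent transcripts that had 62, 108 and 106 counts over all 8 libraries, against 20889 or more for each of the 3 genes. No other gene shared exon bases with Ezh1, Jarid2, Bmi1 or Ring1.

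The genes most like each member were found by the distance between log2 CPM, each centred on its control mean, over the 8 libraries and 8479 genes with a mean of at least 10 CPM. The nearest to Ezh1 was Arhgap45 (distance 0.0604), to Eed Eif4e3 (0.0472), to Suz12 Actr2 (0.0414), to Ezh2 Sms (0.0475) and to Cbx7 Unc119b (0.122). The distance spans both arms, so genes near a member have a similar fold change by construction.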

How the data were processed

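Each of the 8 deposited files holds counts, as whole numbers, for the Ensembl genes of 1 library, with exon positions and length. The authors counted with RSEM, per the labels' protocols, and mm10 is named in the submitters' processing notes. The columns are laid out as another counting tool does, and where the rounding to whole numbers took place is unclear. The aligner, annotation release, strand setting and versions were not given in the sources used here. This kit does not mark strand, so reads of overlapping or similar genes could be shared. Symbols came from GENCODE M21 (48970 of 49315 genes matched). The members and all gene lists were chosen with earlier results of these data known.

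Genes were kept by filterByExpr (14970 genes), scaled with TMM and compared with edgeR's robust two-sided quasi-likelihood test (edgeR 4.0.16, R 4.3.3, threshold 0.05). The SE is the log2 fold change divided by the square root of F. Family shares are counts per kilobase of a paralog over its family, compared by exact permutation over libraries and adjusted over 4 shares. Libraries of an arm differed by more than sampling noise (chi-square per degree of freedom 1.45 to 13.5 in 12 pairs), so none was merged as a library deposited more than once. This does not make technical replicates independent. The length column is the union of a gene's exons, so per-kilobase levels ignore which isoform is made. Alternatives were RLE and upper-quartile factors, library totals, other filters, DESeq2 1.42.0, limma-voom (limma 3.58.1), testing for more than a 1.5-fold difference, blocking on replicate number, and each library left out. All 9 members are named, every tested gene of the PRC2, PRC1, deubiquitinase and demethylase lists could be named, and up to 4 genes of other lists, or the 2 most abundant for other cell types. Further markers and low genes named with their values were chosen after those were seen. The script with the edgeR fit was tested on simulated data. Some genes of the lists are not reported here, though list counts and family shares include them.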

Additional observations from a re-analysis of the deposited data

Results flagged for a closer look

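For Suz12 in the control libraries, replicate 1 (191.5 CPM) lay apart from the other 3 (182.3 to 183.4 CPM): its gap was 0.884 of the group's range, above Dixon's critical value for 4 libraries. This was found in 1 of 30 groups of libraries examined, where chance gives about 1 in 20. Without control replicate 1 the fall of Suz12 kept its call.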

How the results depend on the processing

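All 17 alternatives kept the calls and directions of Ezh1 (log2 fold change 1.07 to 1.31), Cbx7 (1.45 to 1.69), Eed (-1.05 to -0.81) and Suz12 (-0.72 to -0.48). Bmi1 ran from -0.61 to -0.36, Ring1 from 0.24 to 0.48 and Rnf2 from 0.10 to 0.36. Ezh2 passed as higher with upper-quartile factors (0.23), library totals alone (0.17) and the filter of 5 CPM in 4 libraries (0.11). Jarid2 turned to 0.0074 with upper-quartile factors and lost its call with library totals alone (-0.047). Against a 1.5-fold change, Jarid2 (-0.21), Bmi1 (-0.58), Rnf2 (0.14) and Ring1 (0.27) no longer passed, the 9 members had 2 called higher and 2 lower, the PRC2 list had 5 lower, the PRC1 list 8 higher and 4 lower, and the genes called numbered 7436 (3992 higher, 3444 lower). Of 56 other genes followed, 28 changed their call under at least 1 alternative, and Mga (0.14), Asxl2 (0.12) and Kdm6b (0.083) turned with upper-quartile factors. With library totals alone they were at 0.088, 0.066 and 0.029, and Mga at 0.021 with the filter of 5 CPM.

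Leaving out 1 library at a time moved no member's call. The same-numbered libraries did not deviate together (correlations -0.40 to -0.15, and 0 of 8 libraries correlated best with their own number). With the replicate block the 9 members kept their calls. Differences within replicate numbers were 18.4 percentage points for the share of Ezh1, -6.94 for Bmi1 and 8.91 for Cbx7, and 1.09 for the log2 ratio of Ezh1 to Ezh2, where 4 pairs cannot give an exact p below 0.125. The cause of these changes was not tested. At 1282 or more counts per library, depth limits the 9 genes little, whereas Cdkn2a, Cdkn2b and the Hox genes rest on few counts.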
